A study of Homo sapiens with 12 samples.

Results

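The enzymes described here build purine and pyrimidine nucleotides from small precursors: PPAT, GART, PFAS, PAICS, ADSL, ATIC and IMPDH2 of the purine route, and CAD, UMPS and CTPS1 of the pyrimidine route. These 10 genes were chosen by name, and every probe whose platform gene symbol was one of them was taken, which gave 14 of the 24526 probes on the array. All 14 were detected, at a detection p under 0.05, on at least 4 of the 12 arrays and so entered the tests. The cells were U937, a human leukaemia line of monocytic character grown in RPMI medium with glutamine and antibiotics. Control cells were set beside cells given EX527, which blocks the deacetylase SIRT1, and cells given MC2494, a compound known as an inhibitor of several sirtuins, with treatment lasting 24 h. Each group held 4 bead arrays. The labels give no dose, do not say what the controls received in place of a compound, and leave unsaid whether the 4 arrays of a group stand for separate cultures. A p-value below thus weighs a difference only against array-to-array spread, and that spread may be technical.

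De novo synthesis assembles the purine ring step by step on a ribose phosphate, with PPAT taking the first committed step and the route ending at IMP, which IMPDH2 draws toward guanine nucleotides. The pyrimidine ring is made first, by CAD and then DHODH, and joined to the ribose phosphate by UMPS, after which CTPS1 turns UTP into CTP. Dividing cells, leukaemia cells among them, draw heavily on these routes for DNA and RNA, and the transcription factor MYC is known for binding the promoters of many of their genes. Salvage enzymes make the same nucleotides from ready bases and nucleosides.

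Of 12 markers of monocytic and myeloid leukaemia, 10 had a probe detected on all 12 arrays, among them SPI1, LYZ and ITGB2. None of 5 T cell markers passed the filter, and none of the 3 erythroid and megakaryocyte markers on the array, of 5 listed, passed it. MS4A1 and CD79B among 3 B cell markers on the array, of 4 listed, and EPCAM among 7 epithelial and fibroblast markers, did. The mean raw signal lay between 764.0 and 792.6 on the control arrays, between 710.7 and 783.2 with EX527 and between 623.4 and 694.6 with MC2494, so the MC2494 arrays were the dimmest. Between 12231 and 13030 probes were detected per array. Levels below are log2 signals after background correction and quantile normalization, which gives all arrays one distribution, so each difference is relative to the other probes. A probe was called at an adjusted p under 0.05 over all 13174 probes tested. In whole cultures, fewer cells carrying a transcript and less of it in each cell cannot be told apart.

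**Figure D1:**
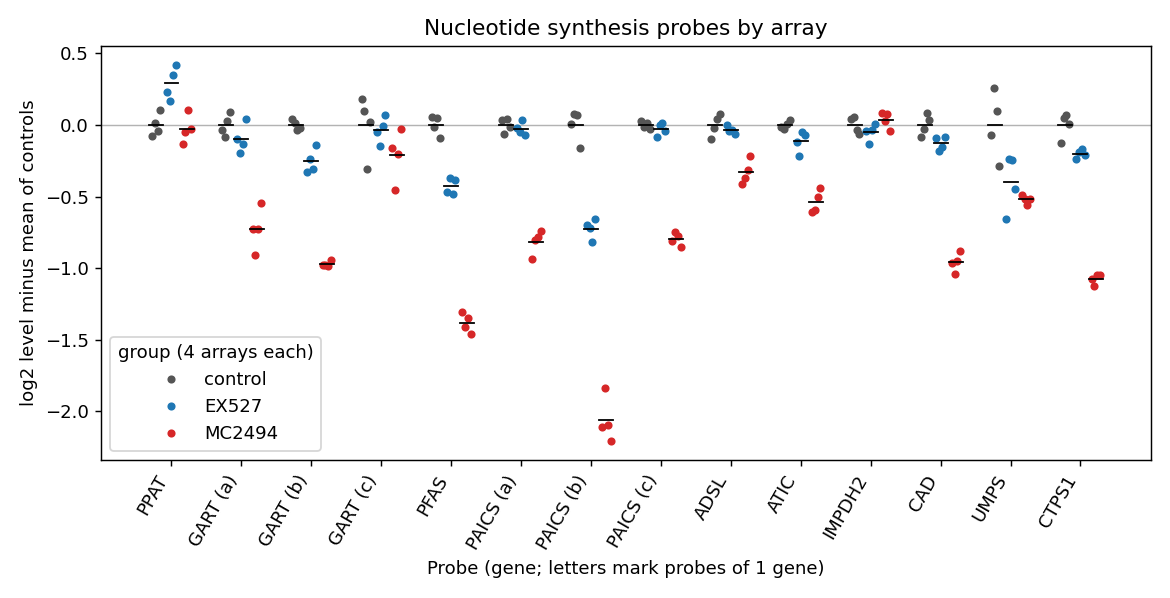
Log2 level of each probe on each of the 12 arrays, minus the mean of the 4 control arrays (points: arrays; black lines: means of 4 arrays; letters mark probes of one gene: GART (a) is annotated to the long transcript, PAICS (c) is the brightest PAICS probe and PAICS (b) the dim one). The MC2494 points lie below all control points for 11 of the 14 probes, while for PPAT the EX527 points lie above all others.

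The comparison of MC2494 with control cells asked which steps of the routes differed after that compound. Transcripts of 8 of the 10 enzymes fell, by between 1.25-fold for ADSL and 2.61-fold for PFAS on the brightest probe of each gene, and none rose, where 34.8% of the 9956 genes with a tested probe were called lower and 37.3% higher. PPAT and IMPDH2, which stand at the entry of the purine route and at its branch to guanine nucleotides, did not pass the test. By probes, 11 of 14 fell and 0 rose, where 35.3% of all probes tested were called lower and 35.4% were called higher. The 4 MC2494 values lay below the 4 control values for the same number, 11 of 14, against 31.6% of all probes. The median log2 difference was -0.76 over the 14 probes and -0.01 over all 13174. Of the 14, 8 were called and at least 1.5-fold lower, as were 15.7% of all probes.

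In the purine route the largest fall on a brightest probe was that of PFAS, the glutamine-dependent synthase that follows GART's transfer of a formyl group. PFAS read 10.51, 10.44, 10.51 and 10.37 on the control arrays, 9.99, 10.09, 9.97 and 10.07 with EX527, and 9.15, 9.04, 9.10 and 8.99 with MC2494. The 3 groups did not overlap, with MC2494 lowest and EX527 between. PFAS was 2.61-fold lower in MC2494 than in control (log2 difference with SE -1.38 ± 0.06, from 4 arrays in each group; limma adjusted p = 5.56e-11), and only 2.69% of probes had a lower difference.

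GART encodes a single protein that carries out 3 early steps of the route, and a shorter transcript of the gene encodes only the first of these activities. The probe annotated to the long transcript (NM_000819) ranged from 11.88 to 12.06 in control, from 11.77 to 12.01 with EX527 and from 11.06 to 11.42 with MC2494. It was 1.66-fold lower in MC2494 (log2 difference -0.73 ± 0.08; limma adjusted p = 1.03e-06). A probe annotated to the short transcript (NM_175085) read 10.06, 10.03, 9.98 and 9.99 in control, 9.69, 9.78, 9.71 and 9.87 with EX527, and 9.04, 9.04, 9.03 and 9.08 with MC2494. Its groups did not overlap, and it was 1.96-fold lower in MC2494 (log2 difference -0.97 ± 0.05; limma adjusted p = 8.62e-10). The dimmest GART probe, annotated to the same short transcript, was near background, detected on 2 control, 2 EX527 and 1 MC2494 arrays. It did not pass, at -0.21 ± 0.11 (limma adjusted p = 0.0899), and passed the threshold without control replicate 3 (-0.31) or MC2494 replicate 4 (-0.27). Probe sequences were not used here, so whether a probe reads one GART transcript alone was not tested.

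PAICS, the bifunctional enzyme of the middle of the purine route, had 3 probes, all annotated to one transcript. The brightest read 12.82, 12.79, 12.81 and 12.77 in control, 12.71, 12.80, 12.81 and 12.76 with EX527, and 11.99, 12.05, 12.02 and 11.95 with MC2494. Only the MC2494 arrays stood apart, 1.74-fold below control (log2 difference -0.80 ± 0.05; limma adjusted p = 2.76e-09). A second bright probe gave nearly the same difference, -0.82 ± 0.06. A much dimmer probe read 7.13, 7.20, 7.20 and 6.96 in control, 6.42, 6.40, 6.31 and 6.47 with EX527, and 5.02, 5.29, 5.03 and 4.92 with MC2494, where 1 of 4 arrays detected it. On that probe the log2 difference in MC2494 was -2.06 ± 0.08 (limma adjusted p = 3.35e-11), and -1.23 without background correction. With most MC2494 arrays at background its size cannot be set beside those of the bright probes, whose direction it shared.

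The last steps to IMP moved less. ADSL, the lyase that acts in the route and again in making AMP, ranged from 13.08 to 13.26 in control and from 12.77 to 12.96 in MC2494, 1.25-fold lower (log2 difference -0.33 ± 0.06; limma adjusted p = 0.000144). ATIC, which closes the purine ring, ranged from 12.67 to 12.73 in control and from 12.08 to 12.25 in MC2494, 1.45-fold lower (log2 difference -0.54 ± 0.06; limma adjusted p = 9.33e-07). Both ranges lay wholly below those of the controls. With each array set to one median the differences were larger, at -0.65 for ADSL and -0.87 for ATIC.

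PPAT, the amidotransferase that commits ribose phosphate to purines, followed another pattern. It read 9.07, 9.16, 9.10 and 9.25 in control, 9.38, 9.31, 9.49 and 9.57 with EX527, and 9.01, 9.09, 9.25 and 9.12 with MC2494. Control and MC2494 overlapped, and the log2 difference of -0.03 ± 0.07 (limma adjusted p = 0.729) had a 95% interval from -0.18 to 0.12. IMPDH2, the rate-limiting enzyme of guanine nucleotide synthesis, read 13.20, 13.22, 13.12 and 13.10 in control, 13.12, 13.02, 13.12 and 13.17 with EX527, and 13.24, 13.18, 13.24 and 13.12 with MC2494. All 3 groups overlapped, and MC2494 differed from control by 0.04 ± 0.05 (limma adjusted p = 0.56), with an interval from -0.08 to 0.15.

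The IMPDH2 value depended on how the arrays were scaled. With each array set to one median it was -0.27 in MC2494 (limma adjusted p = 0.00134), and with no scaling it was -0.27 (limma adjusted p = 0.00502), a call in the lower direction. Its raw signals, 9590.2 to 10819.2 in control against 7915.1 to 9111.8 in MC2494, did not overlap. The whole MC2494 group was dimmer, and what part this had in the result was not tested. PPAT did not pass under any of the 24 alternatives tried, with values between -0.15 and 0.01.

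In the pyrimidine route all 3 enzymes fell in MC2494. CTPS1, the CTP synthase, read 11.02, 11.19, 11.21 and 11.15 in control, 10.90, 10.95, 10.97 and 10.93 with EX527, and 10.07, 10.01, 10.09 and 10.10 with MC2494. The groups did not overlap, and CTPS1 was 2.1-fold lower in MC2494 (log2 difference -1.07 ± 0.05; limma adjusted p = 3.93e-10). CAD, one protein with the first 3 activities of the route, read 9.92, 9.97, 10.08 and 10.04 in control, 9.91, 9.82, 9.85 and 9.92 with EX527, and 9.04, 8.96, 9.05 and 9.12 with MC2494. Only MC2494 stood apart, 1.95-fold below control (log2 difference -0.96 ± 0.06; limma adjusted p = 1.97e-09). UMPS, the bifunctional enzyme that makes UMP, was dim, at 5.55 to 6.10 in control and 5.28 to 5.35 in MC2494. It was 1.43-fold lower (log2 difference -0.52 ± 0.11; limma adjusted p = 0.000742), or -0.27 without background correction, still a call.

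**Figure D2:**
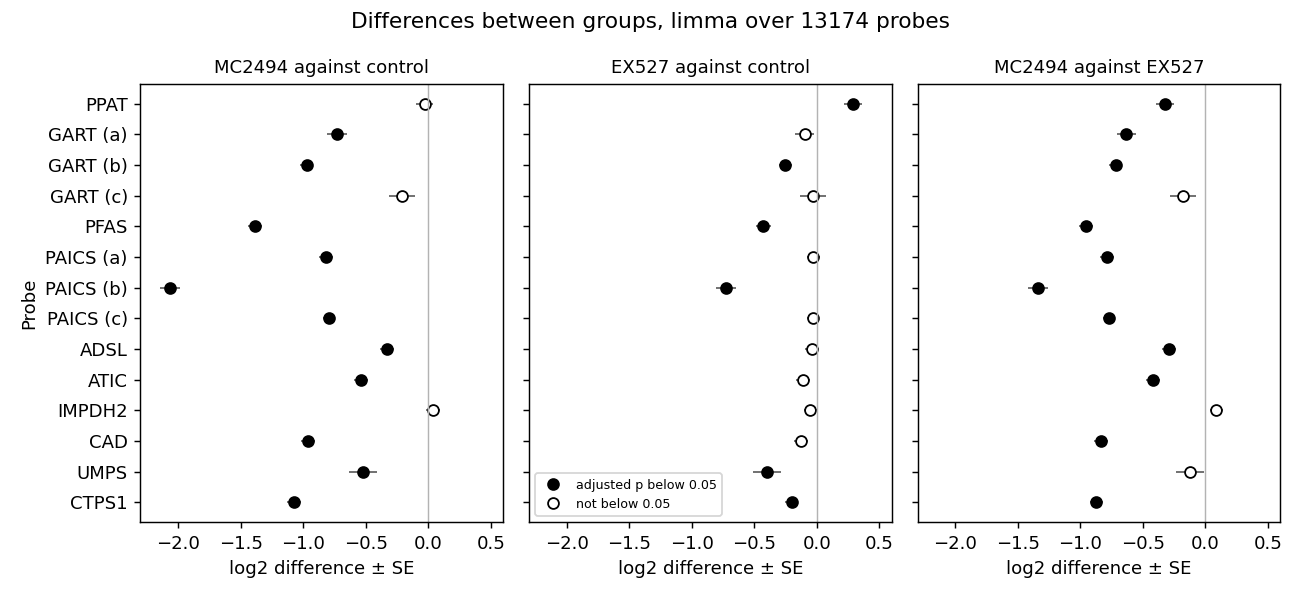
Log2 difference of each probe with its standard error (horizontal axis) in the 3 comparisons, from limma over all 12 arrays. Filled points passed an adjusted p of 0.05. The left and right panels show 11 filled points each, all below 0, and the middle panel shows 5 below 0 and PPAT above it.

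The comparison of EX527 with control cells gave smaller differences and fewer calls. Of the 14 probes 5 fell and 1 rose, where 30% of all probes were called lower and 24.3% were called higher, so with quantile normalization the share that fell was close to that of the array as a whole. By the brightest probe of each gene, PFAS, UMPS and CTPS1 fell, PPAT rose, and the other 6 genes did not pass, where 30.4% of all genes were called lower and 25.6% higher. The median log2 difference was -0.10 over the 14 probes and -0.04 over all probes.

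PPAT was 1.22-fold higher with EX527 than in control (log2 difference 0.29 ± 0.07; limma adjusted p = 0.00308), and its 4 values lay above all control and MC2494 values. This call was kept under each of the 24 alternatives, with differences from 0.25 to 0.33. PFAS was 1.34-fold lower (log2 difference -0.43 ± 0.06; limma adjusted p = 2.53e-05) and CTPS1 1.15-fold lower (log2 difference -0.20 ± 0.05; limma adjusted p = 0.00579). UMPS, detected on 3 of 4 EX527 arrays, ranged from 5.18 to 5.60 there and overlapped the controls, with a log2 difference of -0.40 ± 0.11 (limma adjusted p = 0.00773), or -0.21 without background correction. The short-transcript GART probe fell by 0.25 on the log2 scale and the dim PAICS probe by 0.72, while the brightest probes of both genes did not pass, at -0.10 ± 0.08 and -0.03 ± 0.05.

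For ADSL (-0.04 ± 0.06), ATIC (-0.11 ± 0.06), IMPDH2 (-0.05 ± 0.05) and CAD (-0.13 ± 0.06) no difference passed with EX527. Of their 95% intervals the one of CAD reached lowest, to -0.25. These calls rested on the scaling: with each array set to one median 12 of the 14 probes were called lower, where 31.2% of all probes were, and with no scaling 8 were, where 24.9% of all probes were. With both scalings the share of the 14 that fell was above that of all probes, which were not matched to the 14 for brightness. Dim probes moved little with median scaling: the dimmest GART probe went from -0.03 to -0.04 and UMPS from -0.40 to -0.37. What part brightness had in the added calls was not tested. Median scaling moved GART (-0.26), ADSL (-0.22), ATIC (-0.28), IMPDH2 (-0.23), CAD (-0.17) and both bright PAICS probes (-0.20 and -0.21) past the threshold. PPAT was higher with EX527 under every scaling.

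**Figure D3:**
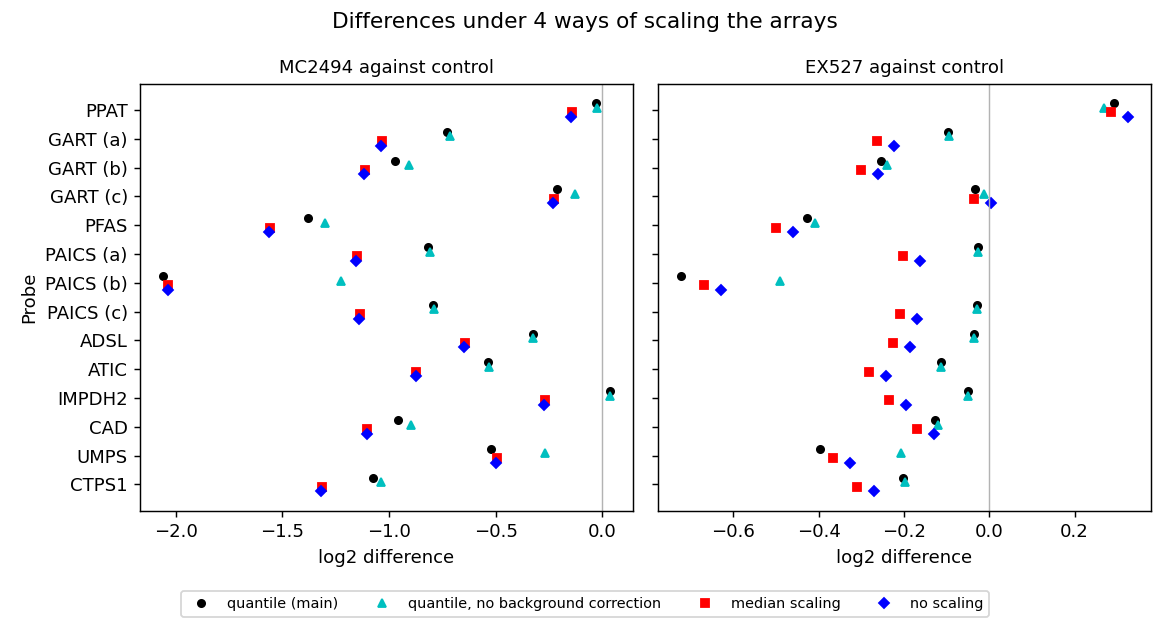
Log2 difference of each probe (horizontal axis) in MC2494 and in EX527 against control under 4 ways of scaling the arrays. For MC2494 the scaling changes the call for IMPDH2 alone among the 14 probes, from 0.04 to -0.27, and for EX527 median scaling shifts the bright probes of GART, PAICS, ADSL, ATIC and IMPDH2 downward.

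MC2494 was also set directly against EX527, as the series lists this comparison, although the labels state neither dose. Each group enters 2 of the 3 comparisons, and all 12 arrays enter the normalization and the estimate of spread, so the comparisons are not independent. By probes, 11 of 14 were lower in MC2494 and 0 higher, where 29% of all probes were called lower and 31.4% were called higher. The median was -0.67 over the 14 probes and 0.01 over all. PFAS was 1.94-fold lower in MC2494 than in EX527 (log2 difference -0.96 ± 0.06; limma adjusted p = 4.25e-09), CTPS1 1.83-fold, CAD 1.78-fold, PAICS 1.7-fold, GART 1.55-fold, ATIC 1.34-fold and ADSL 1.22-fold on their brightest probes. PPAT was 1.25-fold lower (log2 difference -0.32 ± 0.07; limma adjusted p = 0.00126), which combines a rise with EX527 and a level near control with MC2494. UMPS (-0.12, with a 95% interval from -0.36 to 0.12) and IMPDH2 (0.09, from -0.03 to 0.20) did not pass. All 11 calls held with median scaling and with no scaling, although over all probes the share of calls that were higher moved from 52% to 41.2% and 35.2%.

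PPAT and PAICS lie head to head, and their promoter windows overlap, which makes their separate responses easy to set side by side. RefSeq on GRCh38.p14 gave promoter windows, from 250 bases before to 50 after a start site, for 8 of the 10 genes, 13 windows in all. ADSL and IMPDH2 had none in the table. The PPAT window on the minus strand of chromosome 4 and one of 3 PAICS windows on the plus strand share 236 bases, and their start sites lie 137 bases apart. The PPAT window is printed because it holds the whole of this shared stretch. It is given 5′ to 3′ on the strand of the gene, with the motif CACGTG, the sequence that MYC and its partner MAX are known to bind, in capitals.
PPAT chr4:56435566-56435865 minus strand: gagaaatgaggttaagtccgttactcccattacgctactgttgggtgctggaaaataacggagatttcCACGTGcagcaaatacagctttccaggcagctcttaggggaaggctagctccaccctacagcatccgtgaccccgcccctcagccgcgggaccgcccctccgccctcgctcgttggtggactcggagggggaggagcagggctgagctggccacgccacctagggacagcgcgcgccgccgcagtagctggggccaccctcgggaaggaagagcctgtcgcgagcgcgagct

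The motif begins at position -182 from the PPAT start site, and in the PAICS window at position 41 from that gene's start. In these data PAICS fell with MC2494 and PPAT did not pass, and PPAT rose with EX527 where the bright PAICS probes did not pass. Within single arrays, the PAICS signal minus the PPAT signal, each from its brightest probe, was 3.75, 3.63, 3.71 and 3.52 in control, 3.34, 3.49, 3.32 and 3.19 with EX527, and 2.98, 2.96, 2.78 and 2.83 with MC2494. The 3 groups did not overlap, and the difference shifted by -0.77 ± 0.07 with MC2494 and by -0.32 ± 0.08 with EX527. The size of such a difference between 2 probes has no meaning of its own, only its change does. This pair was picked after its values were seen and is given without a test.

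CACGTG was searched along with GCGCATGC, the core of the motif of the transcription factor NRF1, and TGACGTCA, the cyclic AMP response element, on both strands. No window of the 10 genes held more than one kind of these motifs. CACGTG stood in windows of PPAT, PAICS and ATIC, against 7.26% of all 35116 windows and 8.77% of 27305 genes. Only 8 members had a window, and the match of PPAT and that of PAICS are one site in their shared stretch. GCGCATGC stood in 1 member, CTPS1, and in 3.05% of all windows, and TGACGTCA in 1 member, UMPS, and in 1.85%. A match describes the letters only. The windows of ATIC, CTPS1 and UMPS follow to show where these matches lie, in capitals and 5′ to 3′. Counted from the start site, they begin at -46 and 30 in ATIC, at 38 in CTPS1 and at -47 in UMPS.
ATIC chr2:215311809-215312108 plus strand: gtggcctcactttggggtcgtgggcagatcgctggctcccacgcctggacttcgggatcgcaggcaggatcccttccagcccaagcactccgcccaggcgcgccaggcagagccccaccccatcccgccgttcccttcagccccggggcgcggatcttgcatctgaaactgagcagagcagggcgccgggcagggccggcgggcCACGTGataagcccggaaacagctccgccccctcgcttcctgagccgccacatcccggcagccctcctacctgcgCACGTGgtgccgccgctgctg
CTPS1 chr1:40979446-40979745 plus strand: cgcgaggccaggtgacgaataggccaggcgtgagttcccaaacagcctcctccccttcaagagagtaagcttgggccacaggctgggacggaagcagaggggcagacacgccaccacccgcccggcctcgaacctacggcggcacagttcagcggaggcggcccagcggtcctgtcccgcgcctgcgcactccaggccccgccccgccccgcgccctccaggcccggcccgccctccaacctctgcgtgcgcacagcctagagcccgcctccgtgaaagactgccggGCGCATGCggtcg
UMPS chr3:124730202-124730501 plus strand: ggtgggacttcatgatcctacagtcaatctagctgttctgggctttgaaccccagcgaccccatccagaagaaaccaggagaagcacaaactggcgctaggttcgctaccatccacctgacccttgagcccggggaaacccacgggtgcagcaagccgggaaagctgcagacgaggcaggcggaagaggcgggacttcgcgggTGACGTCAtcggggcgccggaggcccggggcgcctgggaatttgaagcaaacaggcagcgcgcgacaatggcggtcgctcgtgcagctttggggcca

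The windows of CAD, PFAS and GART held none of the 3 motifs. Of the 3 genes with CACGTG in a window, ATIC and PAICS fell with MC2494 and PPAT did not pass. CAD, PFAS, GART, CTPS1 and UMPS, without it in their windows, fell. ADSL, which fell, and IMPDH2, which did not pass, had no window. Sites outside the windows were not searched, and whether the motif bears on any of these changes was not tested.

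CTPS1 and IMPDH2 each have a paralog that catalyses the same reaction. The tests of within-array differences between these paralogs were not among the planned tests, so their p-values are descriptive. CTPS2 was 1.29-fold higher in MC2494 than in control (log2 difference 0.37 ± 0.07; limma adjusted p = 0.000234), while CTPS1 was lower. The within-array difference CTPS1 minus CTPS2 shifted by -1.44 ± 0.06 in MC2494 against control (exact permutation, 2-sided, p = 0.0286 and, adjusted over the 6 paralog tests, 0.0429). All 4 MC2494 arrays lay below all 4 controls, which with this many arrays gives the lowest p possible. With EX527 that shift was -0.06 ± 0.07 (exact p = 0.343; adjusted, 0.412). Median scaling and no scaling made the EX527 shift -0.20 ± 0.07 (exact permutation p = 0.0571, adjusted 0.0685), which did not pass. The 2 other CTPS2 probes gave log2 differences of 0.17 and 0.22 in MC2494 and did not pass, so the rise of CTPS2 rests on its brightest probe. With EX527 that probe gave -0.14 and did not pass. Of the other 2, 1 was called higher with EX527 (0.26; limma adjusted p = 0.0368) and 1 did not pass (-0.08). The shifts above use the brightest CTPS2 probe alone.

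IMPDH1 was lower with both compounds, at -0.28 ± 0.06 in MC2494 (limma adjusted p = 0.000428) and -0.40 ± 0.06 in EX527 (limma adjusted p = 4.31e-05). IMPDH2 minus IMPDH1 shifted upward by 0.32 ± 0.05 in MC2494 and by 0.35 ± 0.06 in EX527, with every treated array above every control (2-sided exact permutation test, p = 0.0286 for each; adjusted, 0.0429). Between MC2494 and EX527 it differed by -0.03 ± 0.05 (exact p = 0.543). The IMPDH calls against control were the same under the 5 other normalizations tried, although a constant added to a whole array cancels in such a difference, so that median scaling and no scaling give the same value by construction (0.34 in MC2494 and 0.32 in EX527).

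**Figure D4:**
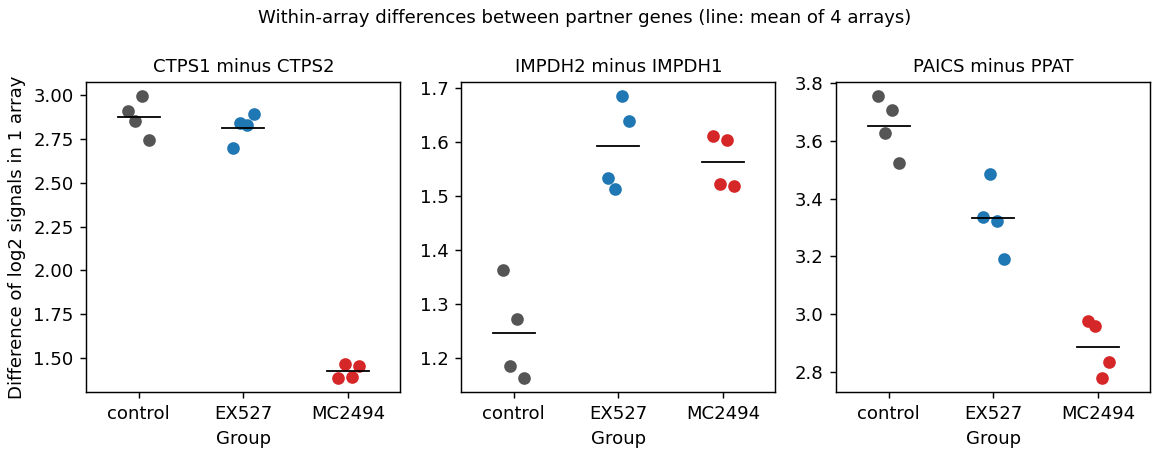
Difference of the log2 signals of 2 genes within each array, by group (points: arrays; lines: means of 4 arrays; vertical axes differ and do not start at 0). With quantile normalization, as plotted, CTPS1 minus CTPS2 is low in MC2494 alone and IMPDH2 minus IMPDH1 is higher with both compounds. PAICS minus PPAT falls into 3 groups that do not overlap.

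Other enzymes of the same routes were counted from a list of 10 genes, of which 8 were measured. In MC2494 5 of these fell and 2 rose, with a median of -0.38 against 0.01 over all genes. Over all 9956 genes 34.8% were called lower and 37.3% higher in MC2494, and 30.4% and 25.6% with EX527. These shares stand beside the counts of each list below. DHODH, the mitochondrial enzyme between CAD and UMPS, was 2.85-fold lower (log2 difference -1.51 ± 0.11; limma adjusted p = 1.67e-08) and was also 1.56-fold lower with EX527. PRPS1, which makes the ribose phosphate donor of both routes, was 2.11-fold lower in MC2494 and 1.31-fold lower in EX527. PRPSAP1, which binds the PRPS enzymes and is known to restrain them, was 1.49-fold higher in MC2494. With EX527 3 of the 8 fell and 0 rose.

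Among the purine salvage enzymes 4 of 6 fell and 2, DCK and DGUOK, rose in MC2494, where 34.8% of all genes fell and 37.3% rose. The median of the 6 was -0.49, beside -0.54 for the de novo purine genes. Neither the rise of DCK nor that of DGUOK was stable. DCK, the deoxycytidine kinase, was detected on 0 control arrays (0.18; limma adjusted p = 0.049) and lost its call under 13 of 19 alternatives. DGUOK, the mitochondrial deoxyguanosine kinase, was at 0.32 but at -0.02 with median scaling and with no scaling, and one of its other probes fell (-0.30; limma adjusted p = 0.000988) while another rose (0.33). PNP, which splits purine nucleosides, was 3.98-fold lower in MC2494 and 1.98-fold lower with EX527. ADK, the adenosine kinase, was 2.59-fold lower in MC2494 on its brightest probe, whereas its other probe gave 0.04 on the log2 scale. Of 7 measured pyrimidine salvage genes 2 fell and 3 rose. TK1, the thymidine kinase of dividing cells, was 4.56-fold lower and UCK2, a uridine-cytidine kinase, 2.38-fold lower, while TK2, the mitochondrial thymidine kinase, was 2.16-fold higher and UPRT 1.46-fold higher. With EX527 UCK2 was 1.44-fold lower, and TK2 did not pass (0.17). TK2 was called higher with EX527 under 4 of 24 alternatives, at 0.24 with median scaling, 0.28 with no scaling, 0.22 without control replicate 4 and 0.22 without EX527 replicate 1.

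Nucleotide kinases were mixed in MC2494, with 6 of 12 lower and 4 higher, where 34.8% of all genes were called lower and 37.3% higher. CMPK2, among those lower, lost its call under 9 of 23 alternatives. NME1, a nucleoside diphosphate kinase, was 2.12-fold lower on its brightest probe (-1.66 and -1.53 on the log2 scale on 2 others) and AK4, a mitochondrial adenylate kinase, 2.11-fold lower, while AK3, which passes phosphate from GTP to AMP, was 2.19-fold higher. In the list of deoxynucleotide synthesis 6 of 7 fell in MC2494, with a median of -1.64, and RRM2B, the stress-responsive subunit of ribonucleotide reductase, rose 1.73-fold. RRM2, the subunit used in S phase, was 5-fold lower in MC2494 and differed by -0.05 ± 0.06 with EX527, where it did not pass. RRM2B was 1.92-fold higher with EX527. Of 11 measured genes of nucleotide breakdown 7 fell and 4 rose in MC2494, of which AMPD3, which fell, lost its call under 8 of 24 alternatives and NT5C3A, which rose, under 2. SAMHD1, counted among those that rose (0.31), was detected on 0 control, 1 EX527 and 3 MC2494 arrays. It passed the detection filter only through treated arrays, so its rise is no support. NUDT1, which clears oxidised purine nucleotides, was 3.35-fold lower in MC2494 (-0.83 on its other probe), and the nucleotidase gene NT5C2 was 1.75-fold higher. Both measured nucleoside carriers of 4 listed rose in MC2494, with a median of 0.37, and SLC29A3 fell with EX527. With no scaling SLC29A3 lost both calls, at 0.17 in MC2494 (limma adjusted p = 0.0512) and -0.12 in EX527 (limma adjusted p = 0.216).

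The purine route needs folate-bound carbon units, glutamine, aspartate and glycine. Of 7 measured folate genes 2 fell and 3 rose in MC2494, where 34.8% of all genes fell and 37.3% rose. MTHFD1, the cytosolic enzyme that makes formyl-folate for GART and ATIC, was 2.89-fold lower in MC2494 (log2 difference -1.53 ± 0.07; limma adjusted p = 2.3e-10) and 1.25-fold lower with EX527. SHMT1, its cytosolic partner, was 1.75-fold lower on the brightest probe in MC2494, with -0.63 and 0.25 on the log2 scale on its 2 other probes. The mitochondrial enzymes MTHFD2 and SHMT2 were 1.63-fold and 1.48-fold higher with EX527. In MC2494 they were 0.41 and 0.31 higher on the log2 scale, but with median scaling 0.15 and -0.01 and without a call. Of 9 measured genes of glutamine, aspartate and serine supply 6 rose and 3 fell in MC2494, and 5 rose and 2 fell with EX527. ASNS, which makes asparagine from aspartate and glutamine, rose 3.87-fold and 4.4-fold, and PSAT1 of serine synthesis 2.32-fold and 3.06-fold. GLUL, the glutamine synthetase, fell 2.14-fold in MC2494 and 1.41-fold in EX527, and its other probe gave -0.29 in MC2494.

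**Figure D5:**
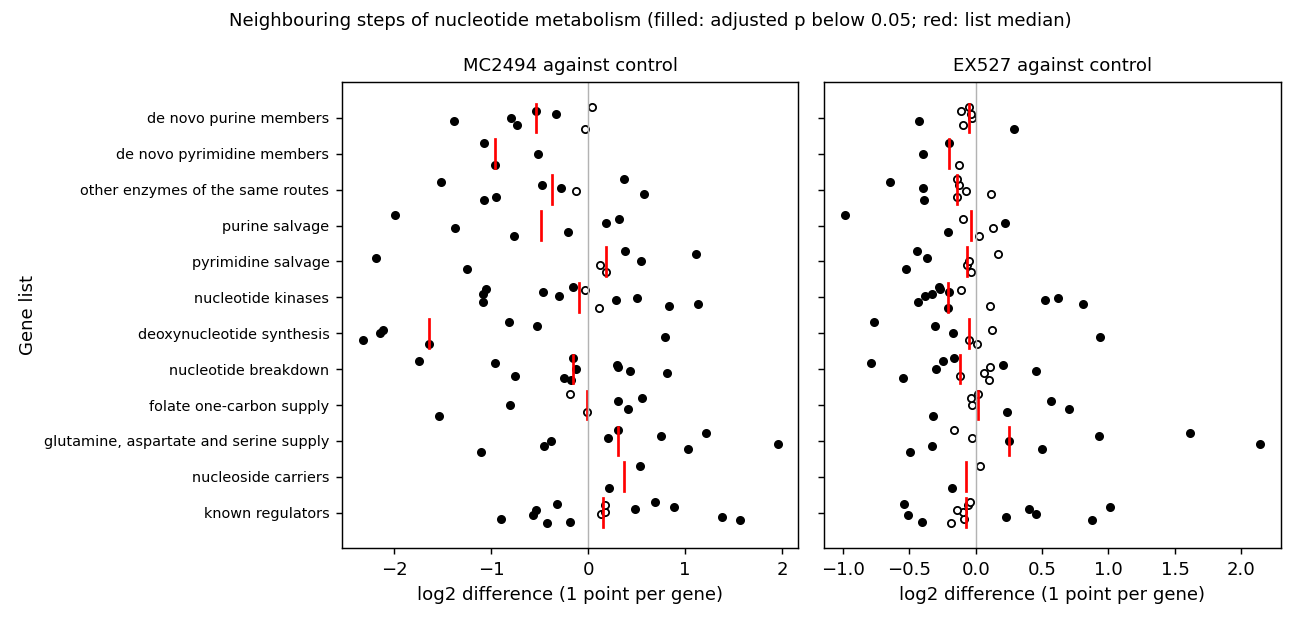
Log2 difference of every measured gene (points, 1 per gene by its brightest probe; filled where the adjusted p was below 0.05) in 12 lists of nucleotide metabolism, with list medians in red. In MC2494 the medians of both sets of de novo enzymes (-0.54 and -0.96) and of deoxynucleotide synthesis (-1.64) lie to the left. So do those of purine salvage (-0.49) and of the other enzymes of the same routes (-0.38). With EX527, after quantile normalization, these medians are -0.05, -0.20, -0.05, -0.04 and -0.14 in the same order, against -0.04 over all genes.

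Of 14 measured genes known as regulators of these routes, 6 fell and 5 rose in MC2494, where 34.8% of all genes fell and 37.3% rose. With EX527 3 fell and 5 rose, where 30.4% of all genes fell and 25.6% rose. MYC was 1.34-fold lower in MC2494 (log2 difference -0.42 ± 0.11; limma adjusted p = 0.00289) and did not pass with EX527 (-0.19 ± 0.11; limma adjusted p = 0.157), where median scaling alone of the 24 alternatives made it a call, at -0.29 (limma adjusted p = 0.0331). MXD1 and MXD4, which compete with MYC for MAX, were 2.95-fold and 2.6-fold higher in MC2494, and 1.84-fold and 1.17-fold higher with EX527. MXD3, of the same family, was 1.86-fold lower in MC2494, and MNT, a further MAX partner, was 1.49-fold lower. RPS6KB1, the S6 kinase known to phosphorylate CAD, was 1.85-fold higher in MC2494 and 2.02-fold higher with EX527. Transcript levels do not give protein levels or activity, and neither was measured.

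Across the 12 arrays the brightest probes of the 10 genes correlated with a median Pearson r of 0.68 over 45 pairs, ranging from -0.60 to 0.99. After each group's mean was removed the median was 0.10, so most of the common movement lay between the groups. The genes outside the routes whose values over the 12 arrays were most like the mean of the 10, by Pearson r, were LAS1L (0.993), UBE2T (0.993), PRC1 (0.993), ARHGAP19 (0.992) and KIF2C (0.992). LAS1L differed by -1.56 in MC2494 and -0.36 in EX527 against control on the log2 scale, and KIF2C by -1.81 and -0.24. These correlations are descriptions over arrays that share 3 treatments.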

How the data were processed

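RNA of U937 cells was measured on 12 Illumina bead arrays, from 3000 ng of total RNA each, per the labels' protocols. One deposited table, which the authors named as not normalized, holds bead intensity on a linear scale. The column after each intensity gives the detection p-value, as the deposited header names it. A second deposited table holds log2 values whose 12 columns share one distribution within 0.000955, as quantile normalization by the authors would give. The submitters' processing notes name limma, and the scanner software is not given in the sources used here. Groups came from the treatment label.

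The neqc function (limma 3.58.1, R 4.3.3) estimated background through the detection p-values, corrected the intensities with offset 16, then applied quantile normalization and log2. Probes detected on at least 4 of 12 arrays (13174) were fitted with a mean per group by lmFit and eBayes, and p-values were adjusted by Benjamini-Hochberg over all of them. A gene outside the members stands for its brightest kept probe. The platform annotation gives 1 symbol to 21834 probes and none to 2692, updated through Entrez identifiers with RefSeq genes of GRCh38.p14, used for names and promoter sequences only. The number of arrays limits the precision. The fit was tested on simulated log2 values with known changes in few probes. These values did not pass through normalization, so that test does not bear on how results depend on scaling. All member probes are described. From each other list, genes were named among the 2 called with the largest rise and the 2 with the largest fall in each compound against control. To these were added IMPDH1, CTPS2, DHODH, GMPS and MYC, and the 5 genes of most similar profile. SAMHD1 was named for its detection alone, and its values were not recomputed under the alternatives. No probe carried the symbol GMPS, so it was not measured. The members, lists and rules were chosen with earlier results of these data known. The alternatives changed background correction, offset, scaling, detection filter, variance model, samples in the fit, replicate block, array weights, probe choice and values, and left out each array in turn.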

Additional observations from a re-analysis of the deposited data

How the results depend on the processing

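The 42 differences of the 14 probes in the 3 comparisons were recomputed under 24 alternatives, of which 12 left out an array, which gave 987 values where the probe was tested. Of these 972 kept their direction where called and their side of the threshold, and 0 lost a call. In the same direction, 13 passed the threshold where the reported value had not, and 2 turned direction. Both turns were IMPDH2 in MC2494 against control, at -0.27 with median scaling and -0.27 with no scaling. These 2 also passed the threshold (limma adjusted p = 0.00134 and 0.00502), where the reported 0.04 was not a call. For the other named genes, of 3576 values 3456 were unchanged in call and direction, 90 lost a call, 26 gained one and 4 turned. The 4 that turned also lost their call (limma adjusted p from 0.809 to 0.901). DGUOK and SHMT2 turned in MC2494 to -0.0158 and -0.0101 with median scaling and to -0.0196 and -0.0139 with no scaling. The count of probes called lower with EX527, 5, became 12 with median scaling and 8 with no scaling, where 31.2% and 24.9% of all probes were called lower. It was 3 over the probes detected on all 12 arrays and 3 with 1 probe per gene, where fewer of the 14 probes enter by construction. Leaving out an array gave 5 to 6 probes lower with EX527, 11 to 12 with MC2494 and 11 in MC2494 against EX527. The added call with EX527 was CAD, at -0.15 without control replicate 1. The replicate number as a replicate block left the counts at 11, 5 and 11 lower and changed no call of the 14 probes. In their deviations 4 of 12 same-numbered pairs correlated above 0.1, and 2 of 12 arrays correlated best with their own number in both other groups. The paralog differences were not among the planned results, and their 5 other normalizations were chosen after seeing the data. Dim probes, such as those of UMPS, the dimmest of GART and the dimmest of PAICS, limit what their sizes show.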
